A study of Mus musculus with 27 samples.

Results

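A set of 10 genes of the cardiac thin filament was followed by symbol through mouse hearts that lack Hand2as (also named Hand2os1 or Uph), a long non-coding RNA gene beside the heart transcription factor gene Hand2. It holds 5 troponin genes (Tnnt2, Tnnt1, Tnni1, Tnni3, Tnnc1), 3 actin genes (Actc1, Acta1, Acta2) and 2 tropomyosin genes (Tpm1, Tpm2), out of 24025 genes in the bulk table and 19020 in the single-cell table. All 10 were found in both. The bulk data were 25 poly(A) RNA libraries from C57BL/6 mice: whole hearts at E11.5 of embryonic development (3 F/+, 3 F/F), ventricles at E16.5 (3 F/+, 3 F/F) and cardiomyocytes of 8-week animals (5 +/+, 2 D/+, 6 D/D). Allele F removes the full length of Hand2as and allele D its 3' distal portion, so every embryonic bulk control carries 1 F allele and no +/+ embryo is among them. The single-cell data were 1 library of +/+ and 1 of F/F E11.5 hearts, each pooled from 6 hearts after trypsin and a sort for living cells with 7-aminoactinomycin D. Nothing in the labels says that bulk replicates of a group are separate animals, so p-values measure only the spread between these libraries, which may be technical.

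The thin filament is a double strand of actin on which tropomyosin lies end to end, with a troponin complex at each tropomyosin. Troponin C binds calcium, troponin I holds the filament in its inhibited state and troponin T ties the complex to tropomyosin. The fetal heart is known to make the slow skeletal troponin I gene Tnni1 together with the cardiac gene Tnni3 and to keep only the cardiac form after birth. Alpha-skeletal actin (Acta1) and smooth muscle actin (Acta2) are likewise made beside cardiac actin (Actc1) in the early heart.

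The genes lie apart in the genome except for a pair of neighbourhoods. On the mm10 build (GENCODE vM21 annotation), Tnni1 (chr1:135779434-135810989) and Tnnt2 (chr1:135836354-135852260) are 25.4 kb apart, and Tnnt1 (chr7:4504570-4516382) and Tnni3 (chr7:4518305-4524229) are 1.92 kb apart. Each pair sets a slow skeletal gene beside a cardiac one. The others are Tnnc1 (chr14:31208312-31211729), Actc1 (chr2:114047282-114053548), Acta1 (chr8:123891769-123894751), Acta2 (chr19:34241090-34255590), Tpm1 (chr9:67022590-67049406) and Tpm2 (chr4:43514711-43523765). Tnni3 overlaps Dnaaf3 on the same strand, and Tnnc1, Actc1 and Acta1 overlap Nisch, A530058N18Rik and Gm20388 on the opposite strand. How the counting treated strand and overlaps is not given in the sources used here, so values of these 4 genes could include reads of the other gene.

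The 3 actin genes are the closest relatives in the set, and their promoters are shown because their levels took different courses. Their coding sequences, 1131 bases each, were 86.3% identical between Actc1 and Acta1, 85.4% between Acta1 and Acta2 and 82.6% between Actc1 and Acta2. The longest identical run in any of the 3 pairs was 29 bases and no 50-base window was shared. RefSeq promoters (GRCm38.p6, 250 bases before to 50 after the start, all 3 on the minus strand) follow, with exact matches to the CArG box (CC, 6 bases each A or T, then GG), the DNA element bound by serum response factor, in capitals.
Actc1, chr2:114052826-114053125: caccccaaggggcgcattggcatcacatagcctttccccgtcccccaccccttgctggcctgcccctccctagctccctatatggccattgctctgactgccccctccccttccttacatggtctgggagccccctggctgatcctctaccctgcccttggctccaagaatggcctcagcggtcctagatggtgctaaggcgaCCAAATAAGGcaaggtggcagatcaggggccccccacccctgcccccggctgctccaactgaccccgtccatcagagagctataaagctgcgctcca
Acta1, chr8:123894726-123895025: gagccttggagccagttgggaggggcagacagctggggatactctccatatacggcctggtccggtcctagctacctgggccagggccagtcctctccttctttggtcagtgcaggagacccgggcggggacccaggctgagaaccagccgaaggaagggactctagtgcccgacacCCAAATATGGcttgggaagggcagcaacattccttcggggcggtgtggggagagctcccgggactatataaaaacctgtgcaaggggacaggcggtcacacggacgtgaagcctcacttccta
Acta2, chr19:34255324-34255623: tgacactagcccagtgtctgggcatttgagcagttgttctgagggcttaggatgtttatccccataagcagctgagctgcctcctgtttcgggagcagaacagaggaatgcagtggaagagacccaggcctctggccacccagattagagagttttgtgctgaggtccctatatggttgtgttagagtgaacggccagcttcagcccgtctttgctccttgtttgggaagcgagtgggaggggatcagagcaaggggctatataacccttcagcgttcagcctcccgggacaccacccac
The box began 47 bases before the listed start of Actc1 and 73 bases before that of Acta1. Of 12 promoters listed for the 10 genes, these 2 held an exact match, against 1.63% of 32851 mouse promoters of the same length, counting both strands. The Acta2 window held no exact match, but 2 windows there were 1 base off the box. With up to 1 base off, matches numbered 4 in Actc1 and 3 in Acta1, and 21.1% of all promoters held at least 1. The M-CAT element CATTCC stood in a promoter of Tnnt2, Tnnc1, Acta1, Acta2 and Tpm1 (14.7% of all promoters), TATAAA in those of Tnnt1, Actc1 and Acta1 (13.6%), and the MEF2 site in none of the 12 (3.19%). In Actc1 the TATAAA lay after the listed start, and whether transcription begins at the listed starts was not tested. Such matches describe the letters only.

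Bulk values are FPKM, a level per kilobase of transcript that can be set between genes, from libraries whose depth in reads is not known. The 10 genes together took 1.74% to 2.71% of all FPKM at E11.5, 5.04% to 6.04% at E16.5 and 7.20% to 11.4% at 8 weeks. Haemoglobin took 10.4% to 29.7% at E11.5, 0.651% to 2.42% at E16.5 and at most 0.0596% at 8 weeks. Its part in these shares was not tested. Every E11.5 library listed Hand2as at 0, so it checks no label there. It was at 0.37 to 1.40 FPKM in F/+ and 0 in F/F at E16.5. At 8 weeks it reached 13.5 FPKM in +/+ and 2.67 in D/D, and the library labelled +/+ replicate 5 was at 0, against its label. That library and D/D replicate 6 stood apart from the other 8-week libraries on the first principal component (44.6% of the variance). The 13 libraries were also cut into the 5 lowest on that component and the other 8, sets that each hold all 3 genotypes. Values of 862 of 10249 genes did not overlap between the sets. The cut came from the same data, so this count cannot show whether the sets are distinct. Cardiomyocyte markers outside the 10 genes were abundant in every library (12 genes summing to at least 10798 FPKM), and skeletal muscle markers were at most 12.9 FPKM in sum at E11.5 and 0.41 at 8 weeks. Some genes used in most cells differed widely between stages: Gapdh was at most 5.09 FPKM in all embryonic libraries and at least 980.5 at 8 weeks. The cytoplasmic actin gene Actg1 had medians of 60.4 FPKM at F/+ E11.5, 0.64 at F/+ E16.5 and 105 at +/+ 8 weeks. Levels set between stages below share these libraries, and whether processing differed between them was not tested.

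Most of the 10 genes passed the test between stages and none between genotypes. Comparisons were fitted with limma on log2(FPKM + 1) over every gene whose mean reached 1 FPKM, and a gene was called at an adjusted p under 0.05 (Benjamini-Hochberg). From F/+ E11.5 to F/+ E16.5, 8 of the 10 genes were called (6 higher, 2 lower), where 48.7% of 11405 genes were called. From F/F E11.5 to F/F E16.5, 9 were called (7 higher, 2 lower), where 47.0% of 11396 were. From F/+ E16.5 ventricles to +/+ 8-week cardiomyocytes, all 10 were called (6 higher, 4 lower), where 69.8% of 10904 were. Values of the 2 groups did not overlap for 8, 9 and 10 of the genes, against 60.0%, 58.5% and 66.1% of all genes. The median difference of the 10 genes was 0.61, 0.65 and 0.85 on the log2 scale, against -0.18, -0.17 and -0.34 for all genes. Scaling by median ratios moved the all-gene medians to 0.015, 0.021 and 0.028, the share of higher calls among all calls from 36.3%, 36.9% and 35.7% to 51.9%, 51.0% and 51.6%, and the median of the 10 genes to 0.84, 0.87 and 1.28, with no direction of a gene changed. E11.5 whole hearts, E16.5 ventricles and isolated 8-week cardiomyocytes differ in tissue as well as age, and the last comparison also in genotype, so these cannot be told apart. In bulk RNA, fewer cells of a type and less RNA per cell cannot be told apart either.

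Troponin I showed the exchange of isoforms. Tnni1, the slow skeletal and fetal inhibitory subunit, was at 1154, 1269 and 1116 FPKM in the F/+ E11.5 hearts and at 3027, 2790.0 and 3114 FPKM in the F/+ E16.5 ventricles. In the +/+ 8-week cardiomyocytes it was at 1.12, 1.19, 0, 0.80 and 0 FPKM. The stages were fully separate: the fetal gene rose by 1.34 ± 0.11 (SE, log2 scale, limma adjusted p = 5.18e-05) between the embryonic stages, and at 8 weeks it was near or at 0 in every library. Its fitted fall to 8 weeks of -10.93 (limma adjusted p = 1.48e-08) depends on the pseudocount of 1. All 6 D/D libraries were between 0 and 0.37 FPKM, and the 2 D/+ libraries were at 0.49 and 0.56.

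Tnni3, the cardiac inhibitory subunit, was at 278, 297 and 288 FPKM in F/+ at E11.5 and at 1535, 1519 and 1882 FPKM in F/+ at E16.5. In the +/+ 8-week libraries it was at 8679, 6434, 5257, 10338 and 10406 FPKM. Each stage was above the last without overlap. The rise was 5.68-fold between the embryonic stages (2.51 ± 0.12 SE, limma adjusted p = 5.87e-06) and 4.85-fold to 8 weeks (2.28 ± 0.24 SE, limma adjusted p = 2.54e-05). Tnni1 rose along with Tnni3 before birth, and the cardiac form made up a median of 19.4% of the 2 troponin I genes' FPKM in F/+ at E11.5 and still 35.2% at E16.5. At 8 weeks the lowest share of the cardiac form in a library was 99.98%.

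**Figure D1:**
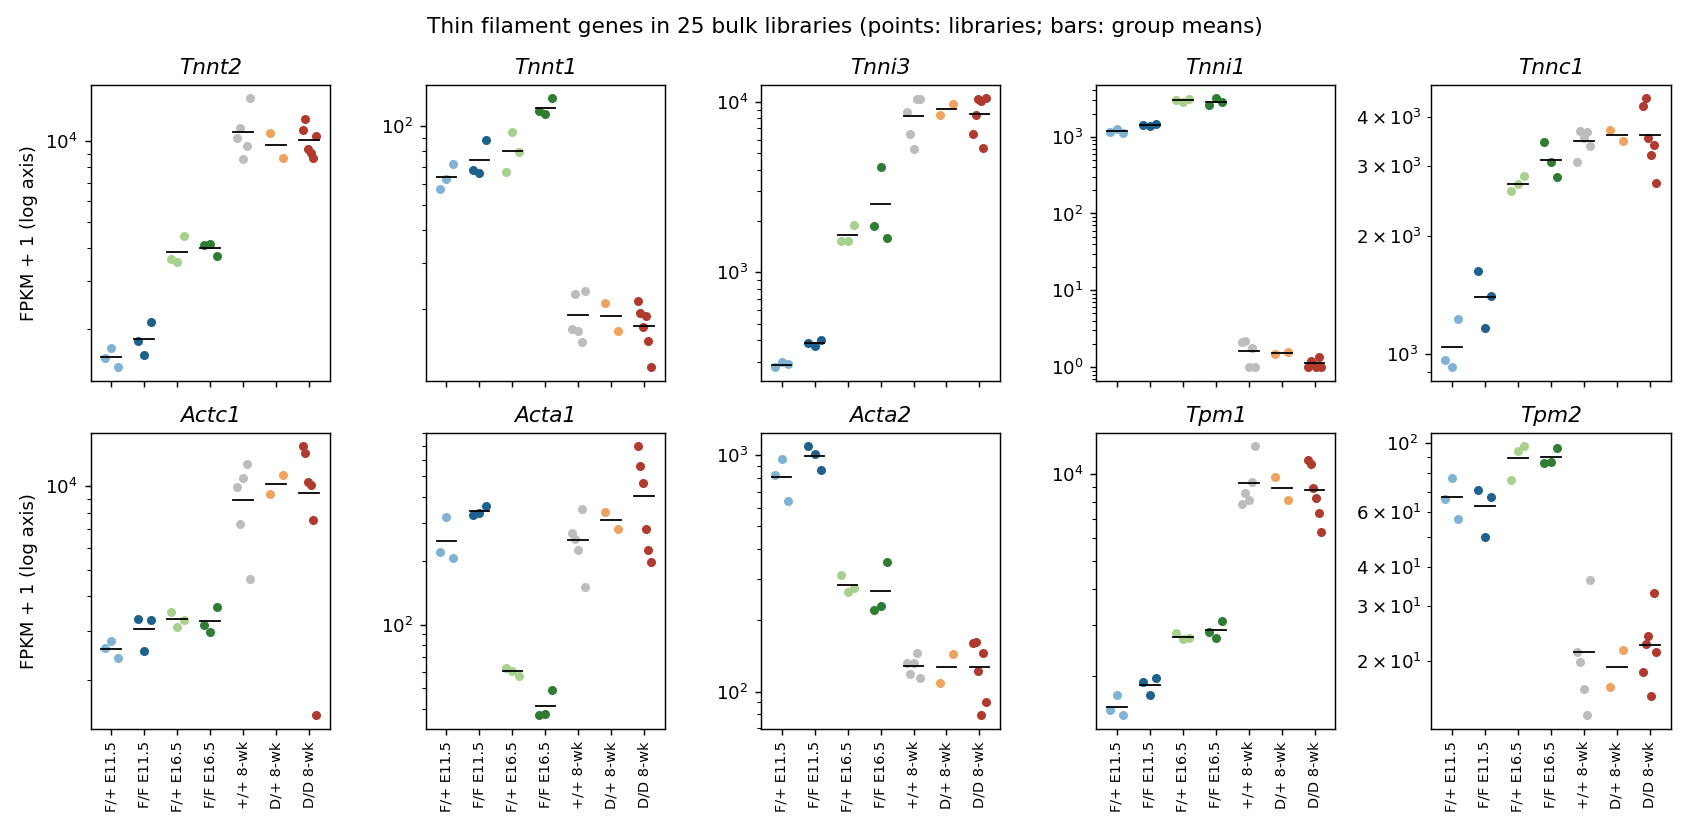
FPKM + 1 on a log axis for each of the 10 genes in 25 libraries, with a point per library and a bar at each group's mean. Tnni1 drops from at least 2574 FPKM at E16.5 to at most 1.19 at 8 weeks, while Tnni3 rises at each stage and Acta1 is lowest at E16.5.

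Troponin T was mostly the cardiac form at every stage. Tnnt2, the cardiac tropomyosin-binding subunit, was at 1557, 1692 and 1434 FPKM in F/+ at E11.5, 3627, 3546 and 4449 in F/+ at E16.5 and 10263, 11223, 8570.4, 9627 and 14470 in +/+ at 8 weeks. It rose 2.47-fold (limma adjusted p = 1.25e-04) and then 2.77-fold (limma adjusted p = 8.84e-05), with no overlap between stages. Tnnt1, the slow skeletal form, was at 56.4, 61.7 and 70.9 FPKM, then 65.8, 94.2 and 78.6, then 15.8, 22, 15.5, 14 and 22.4 in the same groups. The embryonic groups of Tnnt1 overlapped and the difference of 0.32 was not called (limma adjusted p = 0.127), though under median-ratio scaling it was (0.55, limma adjusted p = 0.0354). All 5 values at 8 weeks were lower than any embryonic one, a fall by 2.10 ± 0.19 SE (limma adjusted p = 9.01e-06). Tnnt1 was 3.52% of the 2 troponin T genes' FPKM by median in F/+ at E11.5, 1.78% at E16.5 and 0.155% in +/+ at 8 weeks. So the slow skeletal gene of each neighbouring pair, Tnni1 and Tnnt1, was lower at 8 weeks than at E16.5, and the cardiac gene beside it higher.

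Tnnc1 encodes the calcium-binding troponin C shared by heart and slow skeletal muscle. It was at 966, 926 and 1229 FPKM in F/+ at E11.5, 2594, 2707 and 2827 at E16.5 and 3079, 3679, 3539.7, 3659 and 3383 in +/+ at 8 weeks. The embryonic rise was 2.62-fold (limma adjusted p = 1.06e-04). The later difference was small, 0.35 ± 0.12 SE (limma adjusted p = 0.0260), and it was not called with no filter on low values (adjusted p = 0.121), nor without F/+ E16.5 replicate 1, 2 or 3 or +/+ replicate 2 or 4 (differences of 0.32 to 0.39).

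The 3 actin genes took different courses. Actc1, the main cardiac actin, was at 2605, 2756 and 2398 FPKM in F/+ at E11.5 and 3518, 3093 and 3301 at E16.5. In +/+ at 8 weeks it was at 9894, 7301, 10652, 12050.5 and 4605 FPKM, every one above the embryonic values, and higher by 1.35 ± 0.29 SE (limma adjusted p = 0.00222). The embryonic difference of 0.35 ± 0.11 SE (limma adjusted p = 0.0299) was not called with no filter (adjusted p = 0.209), in 1 fit of all 25 libraries (0.611), or without F/+ E11.5 replicate 1 or F/+ E16.5 replicate 1, 2 or 3 (differences of 0.31 to 0.40).

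Acta1, the actin of adult skeletal muscle, was at 218, 320.4 and 206 FPKM in F/+ at E11.5. It was at 61.6, 59.2 and 56.3 FPKM in F/+ at E16.5 and at 270.0, 254, 225, 352 and 150.0 FPKM in +/+ at 8 weeks. The E16.5 values were the low ones, with no overlap on either side: the gene fell by 2.03 ± 0.17 SE (limma adjusted p = 6.0e-05) and rose by 2.01 ± 0.23 SE (limma adjusted p = 4.47e-05). Actg1, given above, was lowest at E16.5 as well, and its part in the Acta1 pattern was not tested.

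Acta2, the smooth muscle actin, was at 824, 962 and 642 FPKM in F/+ at E11.5, 309, 263 and 273 at E16.5 and 131, 117, 131, 145 and 113 in +/+ at 8 weeks. It fell by 1.5 ± 0.16 SE (limma adjusted p = 1.62e-04) and again by 1.14 ± 0.12 SE (limma adjusted p = 2.61e-05), each stage below the last. Marker sums moved with it. The 8 smooth muscle markers summed to 433 to 521 FPKM in F/+ at E11.5 and 203 to 221 at E16.5, the 6 outflow tract markers to 42.1 to 117 and 6.85 to 9.86 with Isl1 at 0 in all 3 later libraries, and the 6 atrial markers to 4633 to 5927 and 939 to 1018 with Sln at 0. Their part in the fall was not tested. Of the FPKM of the 3 actin genes, Actc1 took a median of 71.4%, 90.6% and 96.0% over the 3 control groups, Acta2 22.6%, 7.71% and 1.27%, and Acta1 6.34%, 1.58% and 2.81%.

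Tropomyosin was mostly Tpm1, the main cardiac gene. Tpm1 was at 1524, 1711 and 1462 FPKM in F/+ at E11.5, 2808, 2674 and 2697 at E16.5 and 7872, 8563, 8121, 9400.1 and 12455 in +/+ at 8 weeks. It rose 1.74-fold (limma adjusted p = 5.43e-04) and 3.36-fold (limma adjusted p = 1.47e-05), with no overlap. Tpm2, known from slow skeletal and smooth muscle, was at 65.5, 76.3 and 56.2 FPKM, then 75.3, 93.1 and 96.8, then 20.4, 18.8, 15.3, 12.4 and 35.4. Its embryonic groups overlapped through F/+ E11.5 replicate 2 and the difference of 0.42 was not called (limma adjusted p = 0.0526), but it was under median-ratio scaling (0.64, limma adjusted p = 0.0038) and without F/+ E11.5 replicate 2 (0.53) or F/+ E16.5 replicate 1 (0.53). It fell by 2.14 ± 0.28 SE to 8 weeks (limma adjusted p = 1.06e-04). The FPKM table gives 1 value per gene, so splice forms of Tpm1, Tpm2, Tnnt2 and Tnnt1 were not separated.

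F/F hearts and ventricles share no library with the F/+ comparison. Acta1 fell by 3.06 ± 0.14 SE and Acta2 by 1.92 ± 0.20 SE (limma adjusted p = 4.76e-06 and 1.66e-04). Tnni3 rose by 2.58, Tnnc1 by 1.17, Tnnt2 by 1.13, Tnni1 by 1.0, Tnnt1 by 0.68, Tpm1 by 0.63 and Tpm2 by 0.54 (limma adjusted p at most 0.0207). Actc1 differed by 0.11, which was not called (limma adjusted p = 0.614). The Tpm2 call was lost in 1 fit of all 25 libraries (limma adjusted p = 0.120) and without F/F E16.5 replicate 1 or 3 (0.0564 and 0.0649), and the Tpm1 call with no filter (limma adjusted p = 0.0531).

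**Figure D2:**
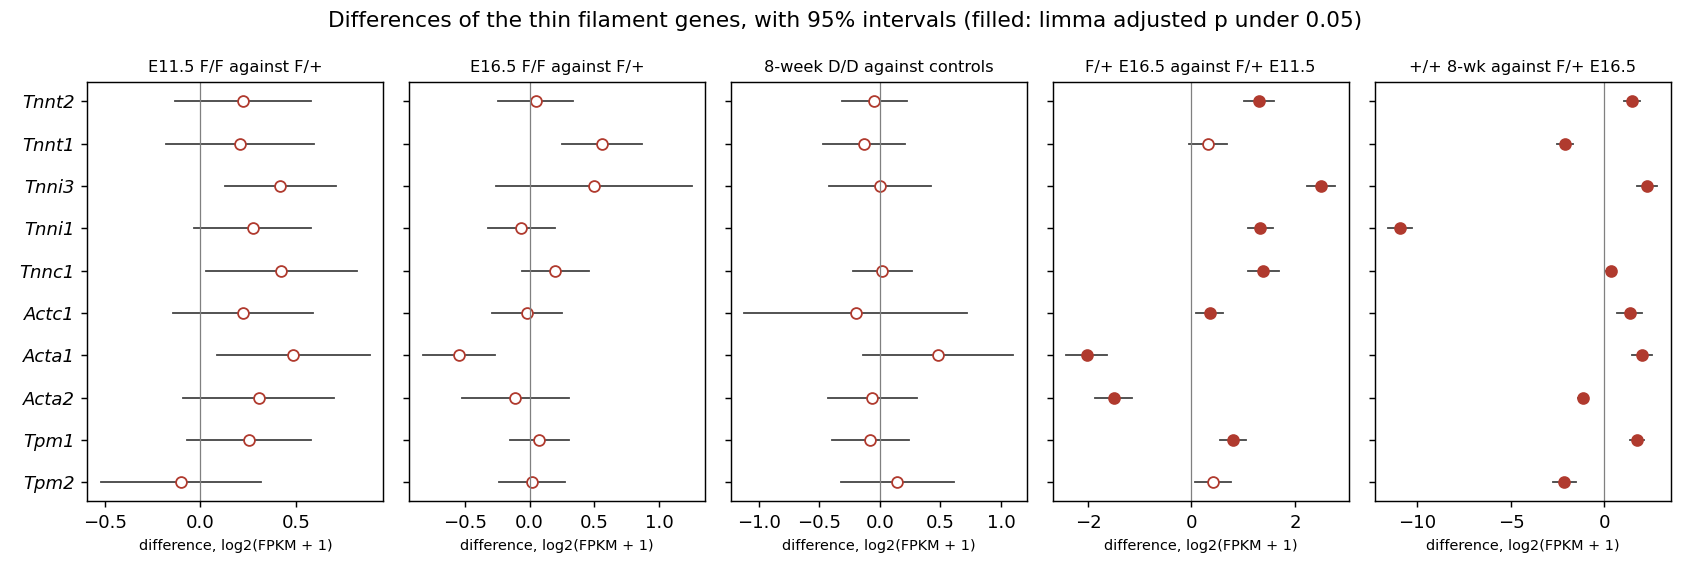
Differences in log2(FPKM + 1) with 95% intervals from limma for the 10 genes in 5 comparisons, where filled points have an adjusted p under 0.05. Tnni1 has no point at 8 weeks between genotypes, since its mean there was under the filter of 1 FPKM. The 3 panels between genotypes hold open points only, while 8 and 10 points are filled in the 2 panels between stages.

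Other genes of the filament were read from lists chosen for their function. Of 7 measured relatives of the 10 genes (the fast skeletal troponins Tnnt3 and Tnni2, the tropomyosins Tpm3 and Tpm4 and the actins Actb, Actg1 and Actg2), 6 fell between F/+ E11.5 and F/+ E16.5 and none rose, where 48.7% of all genes were called and 36.3% of the calls were higher (51.9% under median-ratio scaling). Tnnt3 fell by 1.34, Tnni2 by 1.49 and Tpm3, a tropomyosin of slow muscle and non-muscle cells, by 1.49 (limma adjusted p = 0.0123, 0.00486 and 4.97e-05). Against the same shares, 9 of 15 measured capping and assembly genes rose and 3 fell. Nrap, which anchors assembling myofibrils, rose by 3.74, Myoz2, a Z-disc protein, by 1.86, the formin Fhod3 by 1.71 and Tmod1, which caps the pointed end of actin, by 1.52 (limma adjusted p at most 2.46e-04). Nebl, Lmod1 and Capzb fell by 2.87, 2.01 and 0.71.

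Of 7 smooth muscle contractile genes, Tagln fell by 3.80 and Cnn1 fell by 0.97, and Des, which encodes the muscle intermediate filament desmin, and Smtn rose, by 0.78 and 0.67. Of 11 transcription factors known to act on such genes, 5 were called, close to the 48.7% of all genes. The factors that rose were Nfix by 2.70, Mef2a by 1.58, the serum response factor partner Myocd by 1.14 and Srf itself by 0.45 (limma adjusted p = 0.0456), against Tbx5, which fell by 0.91. From F/+ E16.5 to +/+ 8 weeks, 2 of 7 relatives rose and 5 fell, 10 of 17 capping and assembly genes rose and 3 fell, 4 of 7 smooth muscle genes rose and 2 fell, and 1 of 11 factors rose and 4 fell, where 69.8% of all genes were called and 35.7% of the calls were higher (51.6% under median-ratio scaling). Lmod2, which elongates thin filaments, was at a mean of 813 FPKM at 8 weeks and 60.7 at E16.5, and rose by 3.72 (limma adjusted p = 3.64e-08). Mef2a fell by 1.16 and Mef2c by 1.02, while Nfix rose by 1.40. Actg1 rose by 5.65, the largest value among the relatives, from the low E16.5 level given above. The part of library processing in the Actg1 levels was not tested. No gene of these lists was called between genotypes at any stage.

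Between F/F and F/+ hearts at E11.5, none of the 10 genes passed the test, where 0.00870% of 11491 genes (1 gene) did. At an unadjusted limma p under 0.05, 3 of the 10 and 502 of all genes stood out. The values of 9 of 10 were higher in F/F, with a median of 0.26 against 0.015 for all genes (0.25 against 0.0017 under median-ratio scaling). As a share of all FPKM, the sum of the 10 genes overlapped between genotypes, at 1.95% to 2.67% in F/+ and 1.74% to 2.71% in F/F. Values of the 2 groups did not overlap for 4 of the 10, against 9.23% of all genes: Tnni1, Tnni3, Acta1 and Tpm1, all higher in F/F. F/F hearts had Tnni1 at 1437, 1388 and 1448 FPKM, Tnni3 at 383, 370.2 and 399.6 and Acta1 at 327, 337 and 361. The differences were 0.42 ± 0.13 SE for Tnni3, 0.49 ± 0.18 SE for Acta1 and 0.27 ± 0.14 SE for Tnni1 (limma adjusted p = 0.999 each).

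Tnnc1 was at 1623, 1166 and 1404 FPKM in F/F (difference 0.42, limma adjusted p = 0.999), with replicate 2 below the highest F/+ value. Tpm1 was at 1910.1, 1718 and 1965 FPKM, with a difference of 0.25. Tnnt2, Tnnt1, Actc1 and Acta2 differed by 0.22, 0.21, 0.23 and 0.31, and Tpm2 by -0.10, and the groups of these 5 overlapped. The 12 cardiomyocyte markers, none of them among the 10 genes, summed to 11195 to 13499 FPKM in F/+ and 14442 to 16324 in F/F, and the 8 smooth muscle markers to 433 to 521 and 534 to 594. The part of these marker levels in the differences was not tested.

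At E16.5 none of the 10 genes passed the test between F/F and F/+ ventricles, where 0.00935% of 10699 genes (1 gene) did, and 2 of the 10 and 281 of all genes had an unadjusted limma p under 0.05. These 2, Tnnt1 and Acta1, were also those whose values did not overlap, against 6.78% of all genes. Tnnt1 was at 113, 110.1 and 126 FPKM in F/F, all above the F/+ values (0.56 ± 0.13 SE, limma adjusted p = 1). Acta1 was at 36.4, 36.6 and 48.3 FPKM in F/F, all below the F/+ values (-0.55 ± 0.12 SE, limma adjusted p = 1). Tnni3 was at 1869.9, 4134 and 1589 FPKM in F/F: replicate 2 was far above the others, and the groups overlapped (0.49 ± 0.33 SE). Over 12 alternative settings the Tnni3 difference ran from 0.074 to 0.76.

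The other 7 genes differed by between -0.11 (Acta2) and 0.20 (Tnnc1) at E16.5. F/F ventricles had Tnnt2 at 4098, 4135 and 3716 FPKM, Tnni1 at 2574, 3146 and 2847 and Tnnc1 at 3466, 3077 and 2813. Actc1 was at 3154, 2985 and 3668, Acta2 at 219.7, 228 and 352, Tpm1 at 2829, 2709.8 and 3094 and Tpm2 at 85.6, 86.0 and 95.6 FPKM, all overlapping F/+. The erythroid markers summed to 389 to 8109 FPKM in F/F and 147 to 381 in F/+, and the cardiomyocyte markers to 11409 to 11603 and 10798 to 11775; their part was not tested. Acta1 differed between genotypes in opposite directions at the 2 stages, higher in F/F at E11.5 and lower at E16.5. The difference of the 2 genotype effects was -1.03 ± 0.23 SE and did not pass the adjustment over all genes (limma adjusted p = 0.499), where 0.00875% of 11423 genes (1 gene) did and 493 had an unadjusted p under 0.05. None of the other 9 genes passed that test, and their differences lay between -0.41 and 0.35.

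At 8 weeks 9 of the 10 genes reached a mean of 1 FPKM, all but Tnni1. None passed the test between D/D and the 7 controls (+/+ and D/+), nor between D/D and +/+ alone, where 0% of 10249 genes did in each, although 175 and 104 genes had an unadjusted limma p under 0.05, and none of the 9. No group of values was separate, against 0.0293% of all genes (3 genes) between D/D and the controls. Acta1 in D/D ran from 197 over a median of 373 to 693 FPKM, with D/+ at 339 and 281. The 3 highest D/D values lay above all controls and the others within their range, and the difference was 0.48 ± 0.29 SE (limma adjusted p = 1). It was 0.53 without +/+ replicate 5 and D/D replicate 6, and 0.54 with a term for the 2 sets of libraries. Over 21 alternative settings it ran from 0.29 to 0.76.

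Actc1 in D/D ran from 1492 over 10206 to 13914 FPKM, with D/+ at 9342 and 10929. The lowest value is D/D replicate 6, and the lowest control is +/+ replicate 5. The difference was -0.20 ± 0.43 SE, and 0.12 without these 2 libraries, of the other sign (limma adjusted p = 1 both times). Tnni3 in D/D ran from 5335 over 9226 to 10456 FPKM (difference 0.0046) and Tnnt2 from 8641 over 9919 to 12069.6 (difference -0.044).

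Medians in D/D were 3468 FPKM for Tnnc1, 133 for Acta2, 8591 for Tpm1, 21.1 for Tpm2 and 17.0 for Tnnt1. Their differences from the controls lay between -0.13 and 0.14. The widest 95% interval among the 9 was that of Actc1, from -1.12 to 0.72, and the narrowest that of Tnnc1, from -0.22 to 0.26.

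The ratio of cardiac to fetal troponin I, Tnni3 to Tnni1, was formed in each library from FPKM + 1 and is given on the log2 scale. It was -2.05, -2.09 and -1.95 in F/+ at E11.5 and -1.91, -1.90 and -1.85 in F/F. The 2 groups did not overlap, with F/F higher by 0.14 (two-sided exact permutation p = 0.10, the smallest that 3 against 3 allows, adjusted p = 0.14 over 14 ratio tests). At E16.5 it was -0.98, -0.88 and -0.73 in F/+ and -0.46, 0.39 and -0.84 in F/F, where replicate 2 alone held more Tnni3 than Tnni1. The groups overlapped, with a difference of 0.56 (exact permutation p = 0.20, adjusted p = 0.215) that was 0.21 without F/F replicate 2.

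Between stages the values of the troponin I ratio did not overlap in either genotype, though no ratio test passed the adjustment. It was higher at E16.5 by 1.17 in F/+ and by 1.59 in F/F (exact permutation p = 0.10 each, adjusted p = 0.14). In +/+ at 8 weeks it was 12.34 ± 0.67 (SD, n = 5), 13.20 above F/+ E16.5 (exact permutation p = 0.0179, adjusted p = 0.14), on a scale set by the pseudocount because Tnni1 was near 0. In D/D it was 12.86 ± 0.54 (SD, n = 6), which differed from the controls by 0.47 (exact permutation p = 0.149, adjusted p = 0.189) and from +/+ by 0.52 (exact permutation p = 0.177, adjusted p = 0.207). With Tnni1 at 0 to 1.19 FPKM, these were 0.32 and 0.32 without +/+ replicate 2, and 1.425 and 1.32 with a pseudocount of 0.1.

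The ratio of cardiac to skeletal actin, Actc1 to Acta1, was highest at E16.5. It was 3.57, 3.10 and 3.54 in F/+ and 3.33, 2.91 and 3.18 in F/F at E11.5, with overlap (difference -0.26, exact permutation p = 0.30, adjusted p = 0.30). Over 8 alternative settings that difference ran from -0.41 to -0.15. At E16.5 the ratio was 5.81, 5.68 and 5.85 in F/+ and 6.4, 6.31 and 6.22 in F/F, every F/F value above every F/+ value (difference 0.53, exact permutation p = 0.10, adjusted p = 0.14). The stage differences were 2.38 in F/+ and 3.17 in F/F (exact permutation p = 0.10 each, adjusted p = 0.14), and in +/+ at 8 weeks the ratio was 5.12 ± 0.28 (SD, n = 5) and differed from F/+ E16.5 by -0.66 (exact permutation p = 0.0357, adjusted p = 0.14).

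In D/D cardiomyocytes the actin ratio was 4.33, 4.56, 4.47, 5.15, 5.07 and 2.91, against 5.19, 4.84, 5.56, 5.09 and 4.93 in +/+ and 4.78 and 5.27 in D/+. Replicates 1, 2, 3 and 6 of D/D (4 of 6) were below every control, and replicate 6 was the lowest of all 13. The mean was 4.42 ± 0.81 (SD, n = 6), -0.68 from the controls (exact permutation p = 0.0262, adjusted p = 0.14) and -0.71 from +/+ (exact permutation p = 0.0606, adjusted p = 0.14). Without D/D replicate 6 the differences were -0.38 and -0.41, and without +/+ replicate 5 as well they were -0.41 and -0.45.

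**Figure D3:**
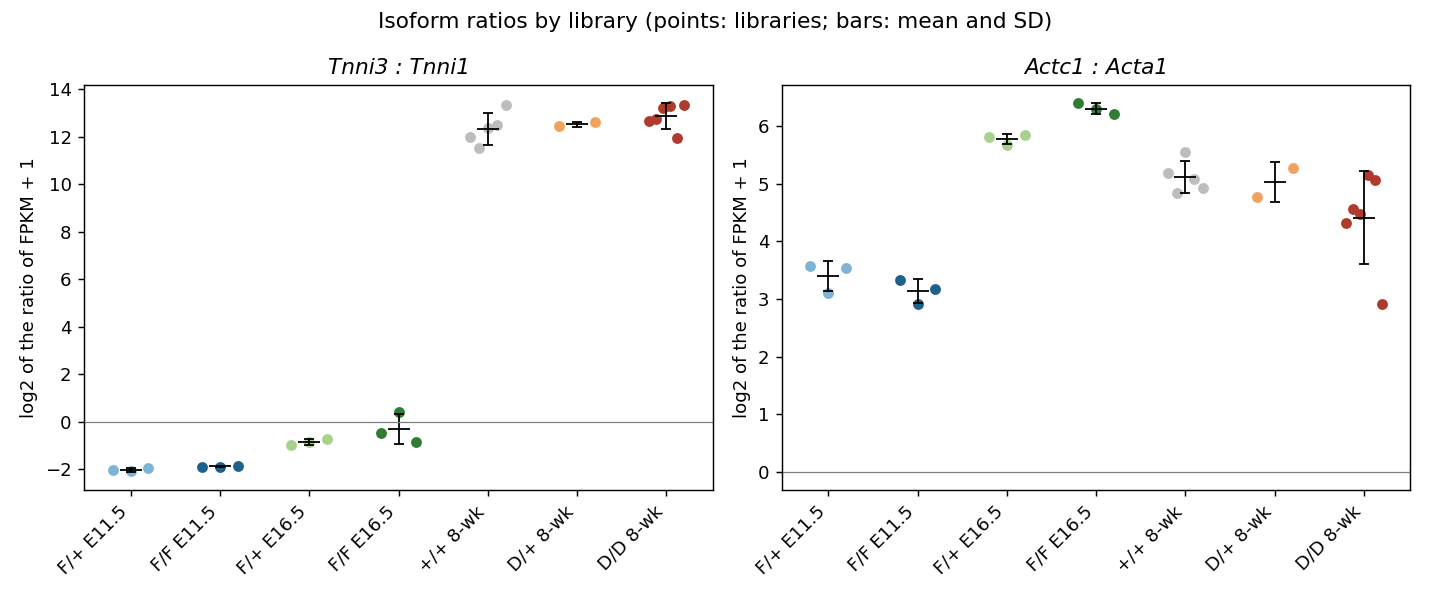
Log2 ratios of FPKM + 1 by library, with each group's mean and SD, for Tnni3 to Tnni1 (left) and Actc1 to Acta1 (right). The troponin I ratio is below 0 in all but 1 embryonic library and at least 11.52 in the 8-week libraries, the actin ratio peaks at E16.5, and D/D replicate 6 is lowest at 8 weeks, at 2.91.

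Single E11.5 cells placed the 10 genes in cell types. The +/+ library held 2563 barcodes and the F/F library 3469, against about 5000 cells aimed at per the labels, with 18 barcodes in both and median UMI counts of 13369 and 13403. After filters and removal of likely doublets, 2503 and 3368 cells were clustered without the 10 genes and named from markers. With 1 library a genotype there is no test, and intervals cover counting error only. Levels are CPM, the UMI count of a gene scaled to 1e6 UMIs of its cell group, which counts molecules at their 3' end whatever their length. Ventricular cardiomyocyte-like cells numbered 441 in +/+ and 702 in F/F, outflow tract myocardium-like 106 and 156, atrial cardiomyocyte-like 35 and 73, mesenchymal-like 461 and 512, epicardial-like 147 and 250, endothelial and endocardial-like 185 and 271, and erythroid-like 956 and 1239. The ventricular group was made up of 2 clusters: cluster 8, led by Nppa (276 and 365 cells), and cluster 10, led by Cox6a2 and Myoz2 (165 and 337 cells), which took a larger part of the group in F/F.

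Within +/+ ventricular cells the most abundant of the 10 genes was Actc1 at 13469 CPM, followed by Tpm1 at 5799, Tnni1 at 3866 and Tnnt2 at 3278. Acta2 was at 2578, Tnnc1 at 2538 and Tnni3 at 1368 CPM. Acta1, Tnnt1 and Tpm2 were lowest, at 585, 253 and 80.4 CPM. Erythroid-like cells, which should lack the troponins and muscle actins (red cells do make tropomyosin), had Actc1 at 102, Tnni1 at 39.9 and Tnni3 at 10.6 CPM, taken here as the background from free RNA.

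Outflow tract cells stood out by Acta2, at 6922 CPM in +/+ and 7036 in F/F, against 2578 and 2571 in ventricular cells, with Tnnt1 at 489 and 705. Atrial cells had more Tnni3 than the ventricular group as a whole, 2041 and 2167 CPM, and less Actc1, 9638 and 10691. Ventricular cluster 10 taken alone had Tnni3 at 1929 and 1739 CPM, and its counting interval overlapped the atrial one in +/+ only. Both libraries gave these orders, though the cell groups were named from other myocardial genes of the same cells.

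Outside myocardium Tnni1 and Tpm1 were above the erythroid level in each of the 3 other named groups described here, while Tnni3, Tnnc1 and Acta1 were close to it. In mesenchymal-like cells Tnni1 was at 681 CPM in +/+ and 705 in F/F, while Tnni3 was at 10.5 and 28.6, against 10.6 and 26.2 in erythroid-like cells. Thinned to 5000 UMIs a cell, 89.3% and 91.1% of mesenchymal-like cells held a Tnni1 UMI (97.8% and 96.9% unthinned), against 18.7% and 37.0% of erythroid-like cells (40.4% and 65.6% unthinned). Median depths were 13532 and 14689.5 UMIs in mesenchymal-like and 10906 and 11651 in erythroid-like cells. The thinning left out 20 and 17 mesenchymal-like and 80 and 65 erythroid-like cells below that depth.

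Epicardial-like cells had Tnni1 at 408 and 469 CPM and endothelial and endocardial-like cells at 363 and 554. Tpm1 reached 1064 and 1014 CPM in epicardial-like cells. The 2 mesenchymal clusters differed in Acta2, at 809.7 CPM in +/+ in cluster 7 and 149 in cluster 6, and in Tpm2, at 327 and 69.1. F/F gave the same order, with Acta2 at 771 and 199.6 CPM. Tpm2 was thus higher in mesenchymal cluster 7 than in ventricular cells, the reverse of Tpm1. Actc1 was above the erythroid level in that cluster too, at 672 and 846 CPM.

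**Figure D4:**
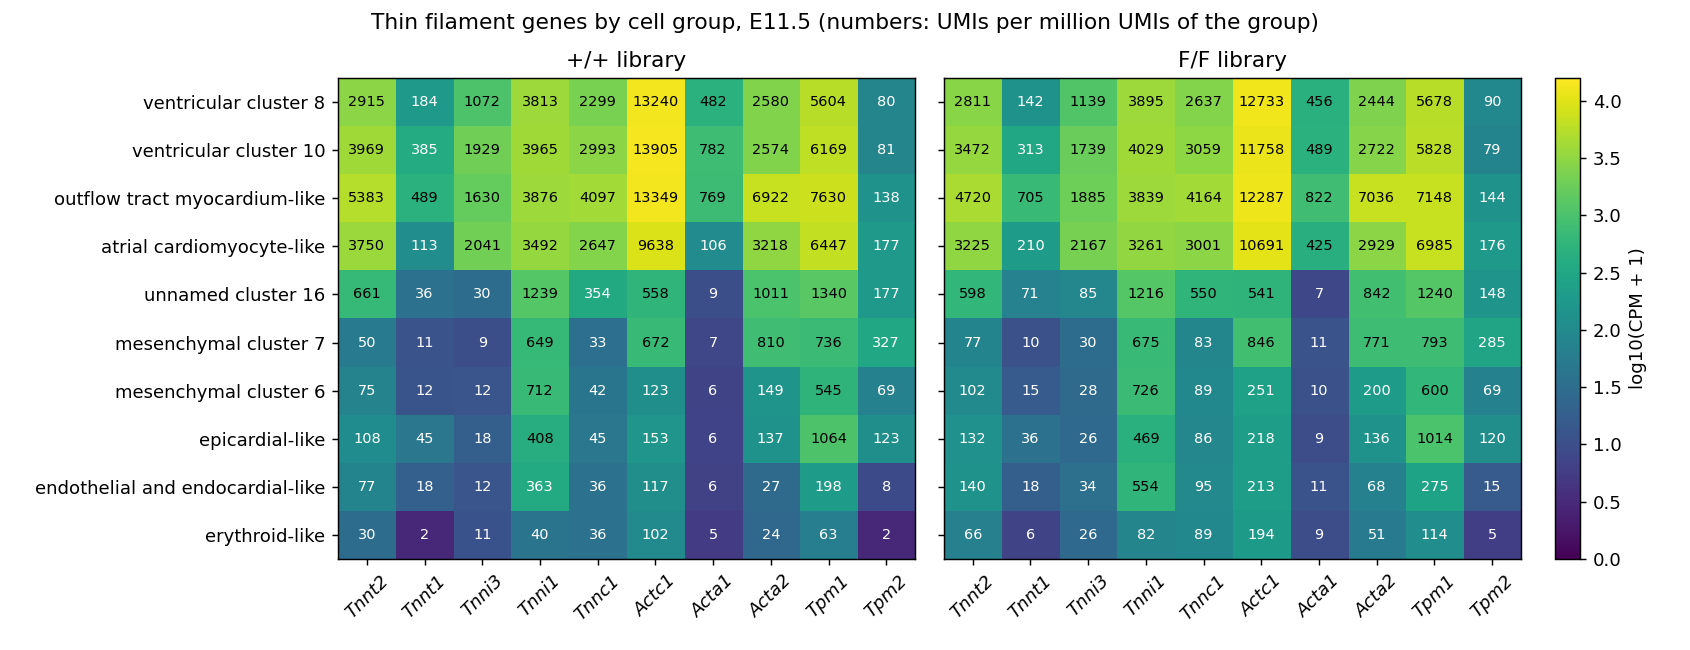
CPM of each cell group for the 10 genes in the +/+ and F/F libraries, with the value in each box and shading on a log scale. Tnni1 and Tpm1 are spread over most cell groups, while Tnni3, Tnnc1, Tnnt2 and Acta1 are higher in the 4 myocardial groups than in the others. Among the myocardial groups Acta1 is lowest in atrial cells, at 106 CPM in +/+ and 425 in F/F.

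Between the libraries, ventricular cells had F/F to +/+ ratios from 0.805 (Acta1) to 1.11 (Tnnc1), and 0 of 10 genes were past 1.5-fold, where 1.30% of 6254 genes were. In outflow tract cells it was 0 of 10, where 2.20% of 2044 were, with Tnnt1 at 1.44 (95% interval 1.32 to 1.57). Among atrial cells 7 of the 10 had at least 100 UMIs in each library and 0 of these were past 1.5-fold, where 2.67% of 562 were. Acta1 in atrial cells was under that minimum, with 43 UMIs in 35 +/+ cells and 389 in 73 F/F cells, a ratio of 4.01 (95% interval 2.93 to 5.64). Only 14.3% of the +/+ cells and 47.9% of the F/F cells held an Acta1 UMI. The interval leaves out this spread between cells and is therefore too narrow.

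Acta1 in the ventricular group was at 585 CPM in +/+ and 471 in F/F, a ratio of 0.805 (95% interval 0.772 to 0.839). The 2 clusters differed: cluster 10 had 782 and 489 CPM, a ratio of 0.62 (95% interval 0.588 to 0.664), where 1 of 10 genes and 2.33% of 2915 genes were past 1.5-fold, and cluster 8 a ratio of 0.947 (95% interval 0.894 to 1.0). Bulk F/F hearts of the same stage had more Acta1 than F/+ hearts, a control of another genotype. Tnnc1, Tnni3 and Tnni1 had ventricular ratios of 1.11, 1.03 and 1.02, and Actc1 and Tnnt2 of 0.912 and 0.95. The Tnni3 ratio went opposite ways in the clusters, 1.06 in cluster 8 (95% interval 1.02 to 1.10) and 0.901 in cluster 10 (95% interval 0.870 to 0.934).

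In erythroid-like cells all 7 measurable genes of the 10 were past 1.5-fold and higher in F/F, where 2.28% of 3766 genes were, with ratios of 1.89 for Actc1, 2.05 for Tnni1 and 2.48 for Tnni3. Endothelial and endocardial-like cells had 3 of 4 measurable genes past 1.5-fold, where 2.68% of 3060 were, all higher in F/F. There Actc1 was at 117 and 213 CPM, close to the erythroid 102 and 194, and Tnni1 at 363 and 554 against 39.9 and 81.9. The part of free RNA in these ratios was not tested. Epicardial-like cells had 1 of 8 genes past 1.5-fold (2.99% of 2975) and mesenchymal-like cells 1 of 7 (1.93% of 6017), which was Tnnc1 both times, at 45 and 86.4 and at 37.9 and 86.3 CPM, near the erythroid 36.3 and 88.7.

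The makeup of troponin I differed among the myocardial cell groups at E11.5. Tnni3 took 21.9% (21.4% to 22.5%) of the UMIs of Tnni1 and Tnni3 in ventricular cluster 8 of +/+ and 32.7% (32% to 33.5%) in cluster 10, with exact 95% intervals in parentheses, which cover counting error only. In F/F these shares were 22.6% (22.2% to 23.1%) and 30.1% (29.6% to 30.7%). Outflow tract cells had 29.6% (28.6% to 30.6%) and 32.9% (32.1% to 33.7%), atrial cells 36.9% (34.9% to 38.9%) and 39.9% (38.6% to 41.3%), and mesenchymal-like cells 1.52% (1.18% to 1.92%) and 3.90% (3.40% to 4.44%). In both libraries the order was mesenchymal, cluster 8, then the other myocardial groups, with atrial cells highest, and cluster 10 and outflow tract cells changed places between the libraries.

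Per cell, among those with at least 20 UMIs of the pair, the median Tnni3 share was 20% in +/+ and 21.4% in F/F in cluster 8, and 32.1% and 29.7% in cluster 10. It was 27.8% and 31.1% in outflow tract and 37.3% and 37.8% in atrial cells. The SD between ventricular cells was 12.6 and 12 percentage points, against 4.69 and 5.11 from counting alone.

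Sarcomeric actin varied from cell to cell in another way. The median Actc1 share was 97.2% and 97.5% of the Actc1 and Acta1 UMIs of ventricular cells, and the lowest 10% of cells were at or below 91.0% and 91.1%. Against Acta2 the median Actc1 share was 84.5% and 83.7% in ventricular cells, 77.2% and 81.5% in atrial and 64.7% and 64.6% in outflow tract cells. Outflow tract cells were the lowest of the 3 in both libraries, and their SD of 14.4 and 12.9 points exceeded the 3.26 and 3.47 from counting.

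**Figure D5:**
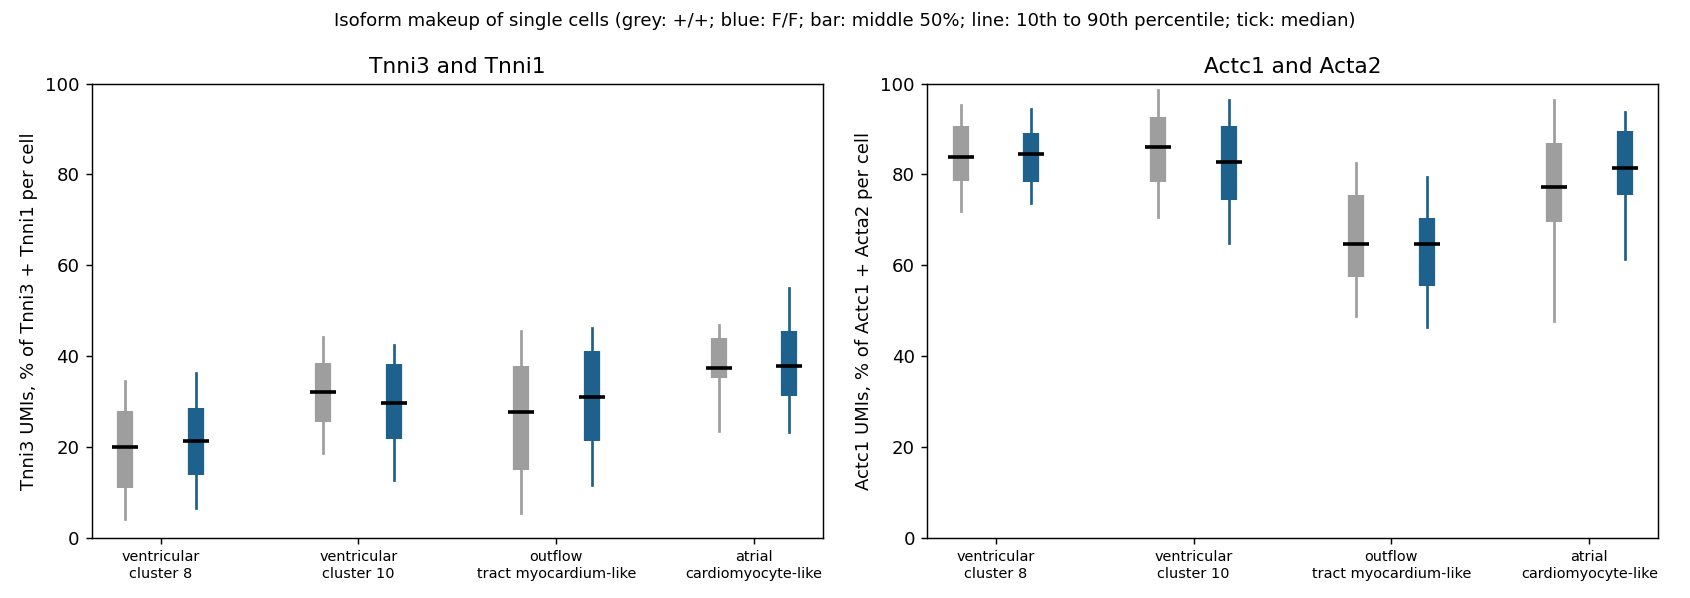
Share of Tnni3 in Tnni3 + Tnni1 UMIs (left) and of Actc1 in Actc1 + Acta2 UMIs (right) per cell, grey for +/+ and blue for F/F, for cells with at least 20 UMIs of the pair. Ticks are medians, bars the middle 50% and lines the 10th to 90th percentile. The Tnni3 share is lowest in ventricular cluster 8 and highest in atrial cells among the myocardial groups, and the 2 libraries lie close together.

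Genes with the most similar patterns were found by Pearson's r on log values, over 25 bulk libraries (7346 genes) and over 32 sums of cluster and library (8416 genes), as a description. The bulk r follows the 3 stages, and the libraries share processing and depth. The 5 genes nearest Tnni1 in bulk were Plagl1 (r = 0.996), Cenpw, Srsf1, Lpar3 and Plekha7, and among those nearest Tnni3 were Coq9 (0.987), Myl3, Mb and Atp5g1. Nearest Acta1 were Cops8 (0.941), Sdhaf2, Smpx, Cog4 and Dad1, and Dad1, a widely used gene, had medians of 119, 6.38 and 192 FPKM over the 3 control groups. Among those nearest Acta2 were Sf3a3, Hn1l, Sae1 and 1190002N15Rik.

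Over cell clusters the neighbours were other genes. Tnni1 was nearest to Pam (0.980), Gbas, Ncs1, Ptges3l and Fuom. Tnni3 was nearest to Csrp3 (0.992), Myl4, Cox6a2, Ttn and Mybpc3, and Acta1 to Actn2 (0.982), Myl3, Mybpc3, Cox6a2 and Tcap, most of them genes of the sarcomere. Acta2 was nearest to Myl9 (0.986), Ankrd1, Sorbs2, Fabp3 and Synpo2. Among the 10 genes, Tnni1 and Tnni3 had an r of -0.83 over bulk libraries and 0.81 over clusters.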

How the data were processed

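The bulk table holds FPKM per gene, made by the authors from poly(A) libraries prepared with a stranded mRNA kit, per the labels, and, per the submitters' processing notes, with CASAVA, TopHat and TopHat2 2.0.11 on mm9. That the values are FPKM was read from the table itself, and the counting step is not given in the sources used here. The single-cell tables hold UMI counts per gene and barcode that the authors made with Cell Ranger on mm10, per the submitters' processing notes. Columns of samples outside the series numbered 0. Of 24525 lines in the bulk table, 769 belonged to 270 symbols given on several lines. FPKM summed to 334194 to 586795 per library and 9495 to 11641 genes reached 1 FPKM.

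Bulk comparisons used limma 3.58.1 with a trend in R 4.3.3, on log2(FPKM + 1) of genes with a mean of 1 FPKM or more, within the groups compared, with Benjamini-Hochberg adjustment over all genes tested. Ratios were tested by two-sided exact permutation, adjusted over 14 tests. The scripts were tested on simulated data. Barcodes with at least 500 genes (2555 and 3464) were kept. Scrublet's automatic threshold marked 2 and 4 barcodes and was not used, and the 52 and 96 barcodes with the highest doublet scores were removed instead (0.8% per 1000 barcodes). The 18 shared barcode sequences were treated as separate cells. Clusters came from scanpy 1.11.5 with Leiden (igraph 0.11.9) at resolution 1, on variable genes without the 10 genes, and names from marker lists. Ratios between the single-cell libraries were read where a gene had at least 100 UMIs in each. Counting intervals were at 95% (Poisson or exact binomial) and cover counting error only.

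The text names the 10 genes, members of 4 lists chosen by function, and the 5 genes with the highest Pearson's r to each of Tnni1, Tnni3, Acta1 and Acta2. The genes and lists were chosen with earlier results of these data known. Alternatives covered the pseudocount (0.1), the filter, median-ratio scaling, 1 fit of all libraries, leaving out each library, a replicate block, a Y-linked covariate, the 2 sets of 8-week libraries, and doublets, resolution, gene minimum, variable genes and scaling of single cells. Leaving out +/+ replicate 5 and D/D replicate 6 together was chosen after seeing the data. Some genes that the rule on Pearson's r names are not reported here.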

Additional observations from a re-analysis of the deposited data

Results flagged for a closer look

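The Actc1 to Acta1 log2 ratio of D/D replicate 6 was 2.91, the lowest of the 6 D/D cardiomyocyte libraries. Its gap to the next library was 0.630 of the group's whole range, above Dixon's 95% critical value for 6 samples. Chance marks about 1 in 20 groups in this way, and 24 groups were examined. Actc1 in that library was at 1492 FPKM and Acta1 at 197.

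The difference between F/F and F/+ in Acta1 had opposite signs at the 2 embryonic stages. The E16.5 difference minus the E11.5 difference was -1.03 on the log2 scale, which did not pass limma's adjustment over all genes (adjusted p = 0.499). All 3 F/F values were above F/+ at E11.5 and all 3 below at E16.5.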

How the results depend on the processing

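The number of the 10 genes called stayed within 1.5 times its value in all 119 refits, and the 142 refits of the ratios kept direction. They also kept their side of the threshold, but ratio tests of 3 against 3 libraries could not cross it. Their smallest possible exact permutation p is 0.10, and that of 5 against 3 is 0.0179 before adjustment. The number of genes called ranged over 7 to 10 for the F/+ stages, 8 to 9 for the F/F stages and 9 to 10 for 8 weeks against E16.5, and was 0 in every refit between genotypes. Counts over all genes ranged over 1 to 24 at E11.5, 0 to 3 at E16.5, 1 to 9 for the difference between stages and 0 at 8 weeks. Of 1148 refitted differences of single genes, 17 lost and 4 gained a call and 66 changed sign, none of these a called difference. Read depth is not known for FPKM, and few UMIs limit the atrial values.

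Replicate numbers did not pair the embryonic libraries of F/F and F/+: deviations of same-numbered libraries correlated at -0.036, -0.017 and 0.082 at E11.5, and at -0.081, 0.042 and -0.43 at E16.5. At 8 weeks same-numbered +/+ and D/D libraries correlated at 0.53, 0.42, -0.039, -0.11 and 0.21. Replicates 1 and 2 also correlated across numbers, at 0.62 (+/+ 1 with D/D 2) and 0.38 (+/+ 2 with D/D 1). All of these are in the set of 5 libraries, so replicates 1 and 2 shared a structure at 8 weeks. With the replicate block, in which D/D replicate 6 has no partner and so does not count, differences between D/D and controls changed sign for Tnni3 (-0.076), Actc1 (0.33), Acta2 (0.058) and Tpm1 (0.025), and between D/D and +/+ for Tnni3 (-0.011), Actc1 (0.35), Acta2 (0.018) and Tpm1 (0.0040). Leaving out D/D replicate 6 without a block gave the same 4 values against +/+ and the same signs against controls. The block ended the call of Actc1 between F/+ stages (limma adjusted p = 0.0726).

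A Y-linked covariate changed the sign of Tnni1 (0.029), Actc1 (0.074) and Tpm2 (-0.065) at E16.5 and of Tnni3 (-0.076) in D/D against controls, as did a term for the 2 sets of libraries (Tnni3, -0.014). Without +/+ replicate 5 and D/D replicate 6, the sign changed against controls for Tnnt2 (0.025), Tnnt1 (0.024), Tnni3 (-0.0071), Actc1 (0.12), Acta2 (0.0013) and Tpm1 (0.090). Against +/+ it changed for Tnnt2 (0.014), Tnnt1 (0.055), Actc1 (0.13) and Tpm1 (0.12). The cause was not tested.

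Leaving out 1 library at a time gave ranges across 0 at E11.5 for Tpm2 (-0.21 to 0.055), and at E16.5 for Tnnt2 (-0.014 to 0.15), Tnni1 (-0.14 to 0.0094), Actc1 (-0.10 to 0.044), Acta2 (-0.33 to 0.013) and Tpm2 (-0.092 to 0.086). In D/D against controls these were Tnnt2 (-0.097 to 0.036), Tnni3 (-0.10 to 0.13), Tnnc1 (-0.046 to 0.096), Actc1 (-0.37 to 0.28), Acta2 (-0.14 to 0.063) and Tpm1 (-0.15 to 0.015). In D/D against +/+ they were Tnnt2 (-0.16 to 0.025), Tnni3 (-0.092 to 0.18), Tnnc1 (-0.030 to 0.11), Actc1 (-0.34 to 0.35), Acta2 (-0.15 to 0.054), Tpm1 (-0.16 to 0.024) and Tpm2 (-0.029 to 0.33). The others were Actc1 between F/F stages (-0.015 to 0.17), and Tnni3 (-0.34 to 0.35) and Tpm2 (-0.038 to 0.23) in the difference between stages.

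Of 170 single-cell values 29 moved beyond their interval. Each setting clustered the cells anew, so a named group could hold other cells. With doublets kept, the ratio of F/F to +/+ changed direction for ventricular Tnnt1 (1.011) and atrial Tnni1 (1.044), and outflow Acta1 was at 1.52 instead of 1.07. There the outflow name fell on 183 cells led by Bmp4 and Eln, and a cluster of 348 led by Rspo3 and Cox6a2 was counted as ventricular. With at least 1000 genes per barcode the atrial name fell on 33 cells led by Bmp2, and 109 cells led by Shox2 and Vsnl1 had no name. The atrial ratios of 1.08 for Acta2, a change of direction, and 12.2 for Acta1 were read on those 33 cells.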

Other observations

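Cells outside the named heart groups held some of the same genes. Immune-like cells, which also carried megakaryocyte markers, had Tnnt1, the slow skeletal troponin T, at 76.6 CPM in +/+ (77 cells) and 87.8 in F/F (77 cells), against 2.03 and 6.25 in erythroid-like cells. Tpm2 was at 90.9 and 127 CPM there, against 2.10 and 4.94. Their Tnni1, at 68.7 and 94.1 CPM, was nearer to the erythroid 39.9 and 81.9.

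A cluster that stayed unnamed, led by Rgs5 and Eln (79 and 80 cells), had Tnni1 at 1239 CPM in +/+ and 1216 in F/F, and Acta2 at 1011 and 842. Its Tnnt2 was at 661 and 598 CPM and its Acta1 at 9.25 and 7.01, so that Tnni1 and Acta2 were high relative to Acta1 and Tnni3 (30.1 and 85.3 CPM).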
